A study of Mus musculus with 9 samples.

Results

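In mouse thymus tumors, 10 genes were chosen by their array signal, which was high and even in resistant tumors and in tumors relative to normal thymus: *Gm266*, *Gfra1*, *Bst1*, *Cenpv*, *Ryk*, *Cpsf4l*, *Scara3*, *Bex1*, *Wdr25* and *Fbp1*. Since the measured rises themselves picked them, their differences from normal thymus are given as a description, with no test. The 10 genes are among 18194 genes that a probe set of the array names alone. They are represented by 17 of 45101 probe sets, which are groups of short oligonucleotides whose brightness is combined into 1 signal.

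The study hybridized labelled RNA of mouse tissue to Affymetrix Mouse430_2 arrays, with 3 arrays each of XIST resistant thymus tumor, of thymus tumor and of normal thymus. Total RNA was taken with Trizol in all groups, and biotinylated cRNA was made from it. The labels give no strain, age, genotype, transgene or tumor model for any group, and do not say how resistance to XIST, the RNA that silences an X chromosome, was set up. Nor is it stated that each array stands for an animal of its own. Every p-value here therefore measures only the spread between arrays, which may be technical, and the number of arrays limits the precision.

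As background, the 10 genes belong to no single pathway. *Gfra1*, *Ryk*, *Bst1* and *Scara3* encode membrane proteins, *Fbp1* a metabolic enzyme, and *Cenpv*, *Cpsf4l*, *Bex1*, *Wdr25* and *Gm266* proteins of diverse or uncharacterised function. The thymus is mostly made of developing T cells, with epithelial cells that direct their selection, and tumors arising in it are often T cell lymphomas. In such tissue, fewer cells of a type and less RNA per cell cannot be told apart.

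The samples' tissue markers set the frame for the signals. *Cd3e*, *Cd3d* and *Cd3g*, the invariant chains of the T cell receptor complex, were above the array median on all 9 arrays. *Cd8a* was above it on 0 of 3 resistant tumor arrays and 0 of 3 tumor arrays, against 3 of 3 normal thymus arrays. The summed signal of 8 T lineage markers was 9752 to 12243 in resistant tumors, 11399.8 to 12789 in tumors and 13423 to 14701 in normal thymus. The 6 thymic epithelial markers summed to 86.5 to 139 in resistant tumors, 74.1 to 211 in tumors and 4890.5 to 5213 in normal thymus. Of the 8 T lineage markers, 1 was called higher and 4 lower in each tumor group than in normal thymus, and the sum includes *Ptcra*, which was the higher one. *Cd247*, the zeta chain, read 236, 216 and 209 in resistant tumors, 272, 249 and 233 in tumors, and 929.7, 889 and 895 in normal thymus. *Cd4*, the coreceptor of helper T cells, read 6.08 to 17.9 in resistant tumors, 13.9 to 24.2 in tumors and 968 to 1240.4 in normal thymus. The normal arrays therefore carried the defining markers of their labelled tissue, while thymic epithelial and coreceptor signals were low in both tumor groups. The arrays also fell into a set of 5 with poly-A spike-in signal (mean 141 to 237, 1 resistant tumor, 2 tumor and 2 normal arrays) and a set of 4 without it (2.01 to 2.95, 2 resistant tumor, 1 tumor and 1 normal array). Their median signals were 13.9 to 17.8 and 23.6 to 25.8 in that order, and values within each set are given beside the results they touch.

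The start regions of the genes are shown first because the genes were high on the same arrays, so that the sequence around their starts can be compared. RefSeq windows of 300 bases, 250 before and 50 after the annotated start (GRCm38.p6), were matched for 7 of the 10 genes by symbol and gene ID, in 8 windows. Printed here are the CpG-rich windows of *Gm266* (chr12:111485774-111486073, minus strand) and *Ryk* (chr9:102834670-102834969, plus strand) and the CpG-poorer ones of *Bex1* (chrX:136215464-136215763, minus strand) and *Fbp1* (chr13:62888233-62888532, minus strand). Capitals mark matches on either strand to any of 5 motifs, whose letters are spelled out in the next paragraph and which do not overlap one another in these windows.
Gm266: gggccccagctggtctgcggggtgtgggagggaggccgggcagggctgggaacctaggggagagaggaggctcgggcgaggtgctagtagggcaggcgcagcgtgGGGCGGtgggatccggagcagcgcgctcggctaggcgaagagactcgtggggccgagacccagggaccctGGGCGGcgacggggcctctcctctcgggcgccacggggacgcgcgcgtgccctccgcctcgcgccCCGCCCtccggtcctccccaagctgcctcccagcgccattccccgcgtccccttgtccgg
Ryk: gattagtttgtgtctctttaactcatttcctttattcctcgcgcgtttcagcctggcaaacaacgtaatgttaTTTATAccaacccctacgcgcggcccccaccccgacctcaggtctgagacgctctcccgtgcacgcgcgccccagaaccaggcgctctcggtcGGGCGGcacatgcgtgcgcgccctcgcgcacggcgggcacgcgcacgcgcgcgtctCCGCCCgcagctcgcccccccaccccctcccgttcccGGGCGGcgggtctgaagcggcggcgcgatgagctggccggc
Bex1: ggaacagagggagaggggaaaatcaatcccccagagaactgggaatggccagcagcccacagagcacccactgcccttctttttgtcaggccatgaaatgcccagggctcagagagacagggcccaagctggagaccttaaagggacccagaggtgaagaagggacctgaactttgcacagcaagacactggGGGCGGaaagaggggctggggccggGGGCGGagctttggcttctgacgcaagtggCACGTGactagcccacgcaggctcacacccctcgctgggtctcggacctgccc
Fbp1: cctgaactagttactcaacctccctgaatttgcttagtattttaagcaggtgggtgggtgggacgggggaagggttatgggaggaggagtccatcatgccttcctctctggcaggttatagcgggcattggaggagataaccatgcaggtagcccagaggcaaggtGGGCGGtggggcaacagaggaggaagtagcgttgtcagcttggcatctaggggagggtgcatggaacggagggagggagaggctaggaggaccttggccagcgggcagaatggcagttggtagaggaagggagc

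The 8 windows did not share a base composition. The *Ryk* window held 42 CpG dinucleotides, the *Gm266* window 33, the *Bex1* window 8 and the *Fbp1* window 6, and the median of 32851 mouse windows of the same length was 7. GGGCGG, the letters of a GC box, was present in 4 of the 8 windows and in 35.7% of all windows. CACGTG, the letters of a canonical E-box, was present in 2 of 8 (*Bex1* and 1 of the *Cpsf4l* windows) and in 7.15% of all windows. TTCNNNGAA, the spacing bound by STAT factors, was present in 1 of 8 (the other *Cpsf4l* window) and in 8.30% of all. TATAAA was present in 1 of 8 (*Ryk*, on the opposite strand, 177 bases before the start) and in 13.6% of all. GTGGGAA, the core bound by RBPJ, was in 0 of 8 and in 6.38% of all. A match describes letters only, and no match says only that those letters are not in the window.

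**Figure D1:**
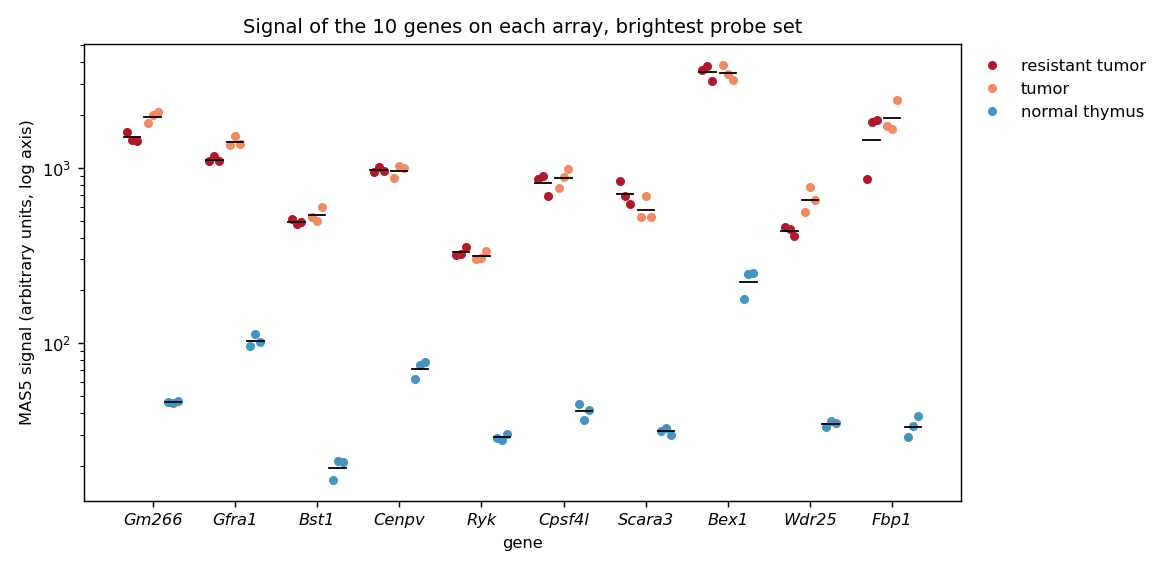
MAS5 signal (arbitrary units, log axis) of the brightest probe set of each of the 10 genes, with 1 point per array, resistant tumor, tumor and normal thymus from left to right within a gene, and a line at the group mean. For every gene all 6 tumor arrays lie above all 3 normal thymus arrays, and the resistant tumor and tumor points overlap for 7 of the 10 genes.

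The 10 genes were 10.8 to 42.9 times as high in resistant tumors as in normal thymus, and 10.8 to 57.4 times as high in tumors as in normal thymus. Their median log2 difference was 4.15 in resistant tumors and 4.22 in tumors, beside 0.06 and 0.05 for all 11671 genes tested. All 10 lay above normal thymus without overlap in both, beside 28.9% of all genes in resistant tumors and 30.1% in tumors, and 54.6% and 55.3% of all genes did not overlap in either direction. All 10 were also called higher in both (adjusted p under 0.05 in limma), beside 23.1% of all genes in resistant tumors and 23.3% in tumors, and nothing is read from this count because the genes were chosen on it. Both comparisons use the same 3 normal thymus arrays. When the genes are ordered by limma's moderated t, 9 of the 10 hold places among the first 10 in each comparison, with only *H2-Bl*, a class I histocompatibility gene, between them. *Fbp1* stands at place 25 in resistant tumors and 23 in tumors, since its arrays spread more. Just outside the first 10 in resistant tumors were *Aldh1b1* (log2 difference 3.95) and *Afdn* (3.41), and in tumors *Afdn* (3.87) and *Nrarp* (2.90), and place 10 was held by *Wdr25* (3.65) in resistant tumors and by *Scara3* (4.20) in tumors. By size of the difference, the 10 hold places 4 (*Fbp1*) to 88 (*Gfra1*) in resistant tumors and 3 (*Fbp1*) to 94 (*Ryk*) in tumors.

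Among the membrane proteins, *Gfra1* encodes the GPI-anchored receptor that binds GDNF and signals with the tyrosine kinase Ret. Its brightest probe set (1439015_at) read 1088, 1165 and 1088 in resistant tumors, 1348, 1511 and 1360.2 in tumors, and 96.8, 112 and 102 in normal thymus. Every resistant tumor array lay below every tumor array, and both groups lay above normal thymus without overlap. The log2 difference from normal thymus was 3.43 in resistant tumors and 3.76 in tumors (SE 0.10 each), which is 10.8-fold and 13.6-fold. A second probe set (1450440_at) read 111, 114 and 104 in resistant tumors, 149.5, 137 and 242 in tumors, and 18.2, 13.2 and 10.98 in normal thymus. It too was lower on every resistant tumor array than on every tumor array. Because all its normal readings were under the array median, it was at least 5.52-fold higher in resistant tumors and at least 8.60-fold higher in tumors than in normal thymus. The third probe set (1421973_at) was at least 1.79-fold higher in resistant tumors and at least 1.77-fold higher in tumors. On it the tumor groups overlapped, at 38.6, 37.4 and 31.3 in resistant tumors and 38.7, 25.6 and 44.0 in tumors.

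*Gfra1* is best known from developing neurons and kidney. The 4 neural and Schwann cell markers on the array summed to 31.6 to 80.9 in resistant tumors, 20.9 to 73.8 in tumors and 43.9 to 58.3 in normal thymus, and overlapped between all groups. Of these 4 markers only 1 passed the filter on low signal. Their sum thus holds much dim signal and is no measure of neural cells. Of 8 tested ligands, receptors and adaptors of the GDNF family other than *Gfra1*, 2 were called higher and 0 lower in each tumor group against normal thymus (limma, Benjamini-Hochberg over all genes). The list's median log2 difference was 0.76 in resistant tumors and 0.10 in tumors. It was 0.19 and 0.04 with an offset of 50 added to the signals, and 0.70 and 0.29 with array medians set equal, with the same counts of calls. Dim genes of the list followed the spike-in sets in all groups. *Ret* read 27.1 to 41.4 on arrays without spike-in signal and 1.42 to 7.17 on those with it. *Gfra3* read 32.3 to 58.6 and 7.61 to 9.48 in that order. The part of the sets in the list medians was not tested. Over all genes, 23.1% were called higher and 20.2% lower in resistant tumors, and 23.3% and 19.1% in tumors. With array medians set equal, 878 of 11671 genes were called higher and 1156 lower in resistant tumors, and 1293 and 994 in tumors. These shares are the background for the counts of every list of genes or markers given here. *Ncam1*, an adhesion molecule that can serve as an alternative GDNF receptor, was at least 3.36-fold higher in resistant tumors (adjusted p = 0.0069) and at least 8.76-fold higher in tumors (adjusted p = 0.0012). *Ncam1* read 18.4, 108 and 149 in resistant tumors, 141, 194 and 192 in tumors and 1.79, 13.6 and 6.74 in normal thymus, so 1 resistant tumor array was close to the normal ones. *Nrtn*, which encodes the ligand neurturin, had a log2 difference of 1.39 in resistant tumors and 1.50 in tumors. *Gfra2*, the receptor closest to *Gfra1*, had log2 differences of 0.15 (SE 0.45, adjusted p = 0.814) and 0.20 (adjusted p = 0.751) in those groups, and -1.20 and -1.09, past the threshold, when the mean over its probe sets was taken.

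*Ryk* encodes a WNT-binding receptor with an inactive kinase domain. Its probe set 1426388_s_at read 318, 320.2 and 355 in resistant tumors, 300.2, 307 and 336 in tumors, and 28.7, 28.1 and 30.3 in normal thymus. Both tumor groups overlapped each other and lay well above normal thymus. The log2 difference was 3.51 in resistant tumors and 3.44 in tumors (SE 0.12 each), which is 11.4-fold and 10.8-fold, the smallest rise in tumors among the 10 genes. The probe set 1451789_a_at gave log2 differences of 4.31 and 4.34 (SE 0.45 each) in those groups. On 1447400_at, where all normal readings were under the array median, the signal was at least 1.27-fold higher in resistant tumors and at least 1.03-fold higher in tumors.

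The WNT list holds receptors and coreceptors other than *Ryk*, and also WNT ligands and signalling proteins inside the cell. Of its 20 tested genes, 10 were called higher and 1 lower in resistant tumors, and 12 higher and 2 lower in tumors. Over all genes, 43.3% and 42.4% were called in either direction. The list's median log2 differences were 0.57 and 0.89. With array medians set equal, 7 were called in resistant tumors and 8 in tumors, all higher, with medians of 0.51 and 1.08. *Ror2*, a receptor kinase for Wnt5a, was at least 4.52-fold higher in resistant tumors and at least 3.22-fold higher in tumors. *Ptk7*, a planar polarity receptor with an inactive kinase, had log2 differences of 2.78 and 3.07 (SE 0.41 each). *Fzd3*, a frizzled receptor, had log2 differences of 2.19 and 2.79 (SE 0.17 each). All 3 passed the test in both tumor groups.

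*Bst1* encodes a GPI-anchored enzyme of the ADP-ribosyl cyclase family, first studied on bone marrow stromal cells. Its probe set 1449453_at read 513, 478 and 488 in resistant tumors, 525, 496 and 594 in tumors, and 16.6, 21.3 and 21.0 in normal thymus, where 2 of 3 readings reached the array median. The tumor groups overlapped each other and not normal thymus. Its log2 difference was 4.66 in resistant tumors and 4.78 in tumors (SE 0.14 each), and its other probe set (1449454_at) gave 5.05 and 5.10 (SE 0.42 each). Macrophage markers, 6 in all, summed to 976 to 1967 in resistant tumors, 939 to 1738 in tumors and 1494 to 1823 in normal thymus, with 0 of 6 called by limma in either comparison and 0 at an unadjusted p under 0.05. The 3 B cell markers on the array summed to 29.0 to 43.2 in resistant tumors, 10.6 to 44.4 in tumors and 178 to 183 in normal thymus. Of these 3, 1 was called lower in resistant tumors and 3 in tumors, and their part in the result was not tested.

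Among 14 tested genes of NAD consumption and salvage, 5 were called higher and 3 lower in resistant tumors, and 4 higher and 3 lower in tumors, with median log2 differences of -0.02 and -0.07. Under equal array medians, 3 were called higher and 3 lower in each, and the tumor median turned positive, at 0.11. *Art4*, a GPI-anchored relative of the ADP-ribosyltransferases, was at least 4.28-fold lower in resistant tumors and at least 5.08-fold lower in tumors than in normal thymus. *Nmnat1*, a nuclear adenylyltransferase that makes NAD, was at least 3.01-fold lower in resistant tumors and at least 3.57-fold lower in tumors. *Nmrk1*, a nicotinamide riboside kinase, had log2 differences of 1.50 and 1.80 (SE 0.29 each).

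*Scara3* encodes a scavenger receptor-like membrane protein. Its probe set (1427020_at) read 843, 688 and 624 in resistant tumors, 524, 693 and 523 in tumors, and 31.4, 32.8 and 29.9 in normal thymus. The first resistant tumor array was the highest, and the resistant tumor and tumor groups overlapped. Relative to normal thymus the log2 difference was 4.51 in resistant tumors and 4.20 in tumors (SE 0.16 each). The 6 fibroblast markers summed to 2593 to 6255 in resistant tumors, 2181 to 5137 in tumors and 1039 to 1129.7 in normal thymus. *Col1a1*, a fibrillar collagen chain, read 302, 292 and 1061 in resistant tumors and 269.6, 655 and 738 in tumors, against 30.1, 32.5 and 39.8 in normal thymus. The collagen genes *Col1a2* and *Col3a1* were likewise above normal thymus on every array of both tumor groups. *Dcn* went the other way. It read 237, 91.0 and 331 in resistant tumors, 147, 188 and 349 in tumors, and 462, 455 and 488 in normal thymus. *Lum* and *Pdgfra* overlapped normal thymus in both tumor groups. Of the 6 fibroblast markers 3 were called higher in each tumor group, and 1 was called lower in resistant tumors. The part of fibroblasts in the difference was not tested.

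Of 11 tested scavenger receptors other than *Scara3*, 2 were called higher and 5 lower in each tumor group, with median log2 differences of -0.05 in resistant tumors and -0.59 in tumors. With array medians set equal, 1 was called higher and 2 lower in resistant tumors and 2 higher and 3 lower in tumors, with medians of -0.11 and -0.40, and with an offset of 50 the medians were -0.03 and -0.30. *Scarf2*, a scavenger receptor of endothelial and other cells, had a log2 difference of -2.28 (SE 0.37) in resistant tumors and was at least 4.18-fold lower in tumors. *Cd163*, the haptoglobin-haemoglobin receptor of macrophages, had log2 differences of -1.63 and -2.65 (SE 0.53 each). *Msr1*, a macrophage scavenger receptor, was at least 2.97-fold higher in resistant tumors and at least 2.66-fold higher in tumors. *Scara5*, the class member nearest to *Scara3* by name, was at least 1.90-fold lower in resistant tumors (adjusted p = 0.0376 in limma). In tumors it had a log2 difference of -2.05 (SE 0.62, adjusted p = 0.0232). The resistant tumor call was lost without any single resistant tumor or normal thymus array (adjusted p = 0.0636 to 0.1). The tumor call was lost without tumor replicate 1 or 2 or any normal thymus array (0.0549 to 0.0759).

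*Fbp1* encodes fructose bisphosphatase, a rate-controlling enzyme of gluconeogenesis. Its probe set (1448470_at) read 859, 1823 and 1876 in resistant tumors, 1733, 1670.4 and 2422 in tumors, and 28.9, 33.5 and 38.2 in normal thymus. The first resistant tumor array read less than every other tumor array and was still far above normal thymus. *Fbp1* had the largest log2 difference of the 10 genes in both groups, 5.42 in resistant tumors and 5.84 in tumors (SE 0.29 each), or 42.9-fold and 57.4-fold. The 3 hepatocyte markers on the array summed to 17.3 to 171 in resistant tumors, 13.9 to 50.1 in tumors and 208 to 228 in normal thymus. Of the 3, 0 were called in resistant tumors and 3 were called lower in tumors (limma, with 0 at an unadjusted p under 0.05 in resistant tumors), and their part in the result was not tested. The paralog *Fbp2*, which lies beside *Fbp1* on the chromosome, did not pass the filter on low signal, with readings of 0.90 to 8.02.

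Of 15 tested genes of gluconeogenesis and fructose bisphosphate metabolism, 8 were called higher and 0 lower in resistant tumors, and 10 higher and 1 lower in tumors, with a median log2 difference of 0.80 in each. *Pck2*, mitochondrial phosphoenolpyruvate carboxykinase, had log2 differences of 3.01 and 3.19 (SE 0.27 each). *Aldoc*, a fructose bisphosphate aldolase, was at least 8.90-fold higher in tumors, and in resistant tumors read 25.6, 22.0 and 123 with a log2 difference of 1.41 (SE 0.57, adjusted p = 0.0729), short of the test. *G6pc3*, a ubiquitous glucose phosphatase subunit, read 68.9, 68.1 and 146 in resistant tumors, 94.8, 177 and 159.7 in tumors, and 8.31, 57.6 and 62.4 in normal thymus, where 1 array was far below the others. Its log2 differences were 1.51 (SE 0.69, adjusted p = 0.107) in resistant tumors and 2.16 (adjusted p = 0.0297) in tumors. Without normal thymus replicate 1 they were 0.56 and 1.21, and without tumor replicate 2 or 3 the call in tumors was lost (adjusted p = 0.095 and 0.0853). Under equal array medians, 3 genes of the list were called in resistant tumors and 5 in tumors, all higher than in normal thymus.

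*Cenpv* encodes a centromere protein required for organised chromosome alignment and cell division. Its probe set (1428706_at) read 945, 1006 and 957 in resistant tumors, 873, 1017 and 996 in tumors, and 62.7, 74.8 and 77.6 in normal thymus. The tumor groups overlapped fully and stood clear of normal thymus. *Cenpv* had log2 differences of 3.76 in resistant tumors and 3.75 in tumors (SE 0.12 each). Of 24 other tested centromere and kinetochore genes, 5 were called higher and 1 lower in resistant tumors, and 6 higher and 1 lower in tumors, with median log2 differences of 0.08 and 0.11. With array medians set equal, 0 of the 24 were called by limma in either group (2 in each at an unadjusted p under 0.05), the calls of all genes named here from the list were lost, and the medians were 0.02 and 0.30. *Cenpm*, with log2 differences of 1.24 and 0.98 (SE 0.24 each), and *Cenps*, with 0.78 and 0.66 (SE 0.15 each), were the called genes of largest size in tumors. *Cenpp* passed the test in tumors (0.61, adjusted p = 0.0268) and not in resistant tumors (0.42, adjusted p = 0.103).

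*Cpsf4l* is named for its likeness to *Cpsf4*, a zinc finger subunit of the complex that cleaves and polyadenylates mRNA. Its probe set 1425312_s_at read 868, 895 and 694 in resistant tumors, 763, 887 and 979 in tumors, and 45.2, 36.6 and 41.4 in normal thymus. The tumor groups overlapped. Its log2 difference was 4.31 in resistant tumors and 4.41 in tumors (SE 0.15 each), and the probe set 1425401_at was at least 11.2-fold higher in resistant tumors and at least 12.3-fold higher in tumors. *Cpsf4* itself had log2 differences of 0.12 (SE 0.19, adjusted p = 0.647) and 0.29 (adjusted p = 0.262). Of 19 tested cleavage and polyadenylation factors, 0 were called higher and 3 lower in resistant tumors, and 1 higher and 4 lower in tumors, with median log2 differences of -0.02 and 0.07. After setting array medians equal, 2 were called in resistant tumors and 1 in tumors, all lower, and the medians were -0.08 and 0.25. *Cstf2t*, a cleavage stimulation factor subunit, had log2 differences of -2.01 and -1.76 (SE 0.19 each). *Papolg*, a poly(A) polymerase, had -1.05 and -0.56 (SE 0.16 each), and *Wdr33*, the subunit that reads the polyadenylation signal, had -0.63 and -0.55 (SE 0.15 each). The *Wdr33* values come from its brightest probe set, and its other probe sets were not all lower. Over the alternative settings *Wdr33* ran from -0.75 to -0.03 in resistant tumors and from -0.67 to -0.02 in tumors.

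*Bex1* encodes a small adaptor studied in nerve growth factor receptor signalling in rat neural cells. Its probe set (1448595_a_at) read 3621, 3829 and 3141 in resistant tumors, 3868, 3404 and 3172 in tumors, and 179, 249 and 249 in normal thymus. The tumor groups overlapped. Its log2 difference was 3.98 in resistant tumors and 3.96 in tumors (SE 0.15 each). Of 6 tested genes of the BEX and TCEAL list, which includes *Ngfr*, 4 were called higher and 1 lower in resistant tumors and 4 higher and 0 lower in tumors, with median log2 differences of 0.78 and 0.76. With array medians set equal, 1 was called higher and 1 lower in resistant tumors, and 3 higher and 0 lower in tumors. *Bex4*, a close relative, was at least 1.47-fold higher in resistant tumors, where it read 8.14, 50.4 and 60.2, and at least 4.81-fold higher in tumors. *Ngfr*, the receptor that BEX proteins bind, had log2 differences of 1.81 and 2.41 (SE 0.27 each), and *Bex3* had 0.76 and 0.86 (SE 0.10 each). *Bex2*, another family member, was at least 1.56-fold lower in resistant tumors (log2 difference -2.26, adjusted p = 0.0465 in limma). That call was lost without resistant tumor replicate 2, any tumor array or any normal thymus array (adjusted p = 0.0521 to 0.11). Without resistant tumor replicate 3 it held, with a smaller log2 difference of -1.15. In tumors *Bex2* had a log2 difference of -1.44 (adjusted p = 0.185).

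*Wdr25* encodes a WD repeat protein that flanks the imprinted Dlk1-Dio3 domain. Its probe set (1456645_at) read 459, 444 and 407 in resistant tumors, 559, 774 and 657 in tumors, and 33.0, 35.8 and 35.2 in normal thymus. Every resistant tumor array was below every tumor array, and normal thymus was well below both. Its log2 difference was 3.65 in resistant tumors and 4.25 in tumors (SE 0.14 each). Of 10 tested genes of the Dlk1-Dio3 domain and its flank, 1 was called higher and 3 lower in resistant tumors and 2 higher and 2 lower in tumors, with median log2 differences of 0.00 and 0.16. After setting array medians equal, 0 were called higher and 1 lower in each, and the medians were -0.06 and 0.34. *Degs2*, a sphingolipid desaturase, was at least 2.68-fold lower in resistant tumors and at least 3.18-fold lower in tumors. *Wars*, the tryptophanyl-tRNA synthetase that lies next to *Wdr25*, had log2 differences of 0.52 (adjusted p = 0.0857) and 0.80 (adjusted p = 0.0156), and *Evl*, an actin regulator, had 0.56 (adjusted p = 0.0536) and 0.76 (adjusted p = 0.0148).

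*Gm266* is a predicted gene to which no role is given here. Its probe set 1436115_at read 1602, 1446 and 1427 in resistant tumors, 1798, 1996 and 2088 in tumors, and 45.9, 45.6 and 46.8 in normal thymus. The normal readings had a coefficient of variation of 1.35%, the lowest of the 10 genes, and resistant tumor and tumor readings did not overlap. Its log2 difference was 5.01 in resistant tumors and 5.41 in tumors (SE 0.10 each), the highest moderated t of all genes tested in both comparisons. Its second probe set (1438770_at) was dim, reading 38.3, 33.8 and 20.9 in resistant tumors, 51.8, 24.1 and 32.1 in tumors, and 17.9, 3.32 and 5.96 in normal thymus. With all normal readings under the array median, it was at least 1.51-fold higher in resistant tumors and at least 1.72-fold higher in tumors, which are lower bounds.

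**Figure D2:**
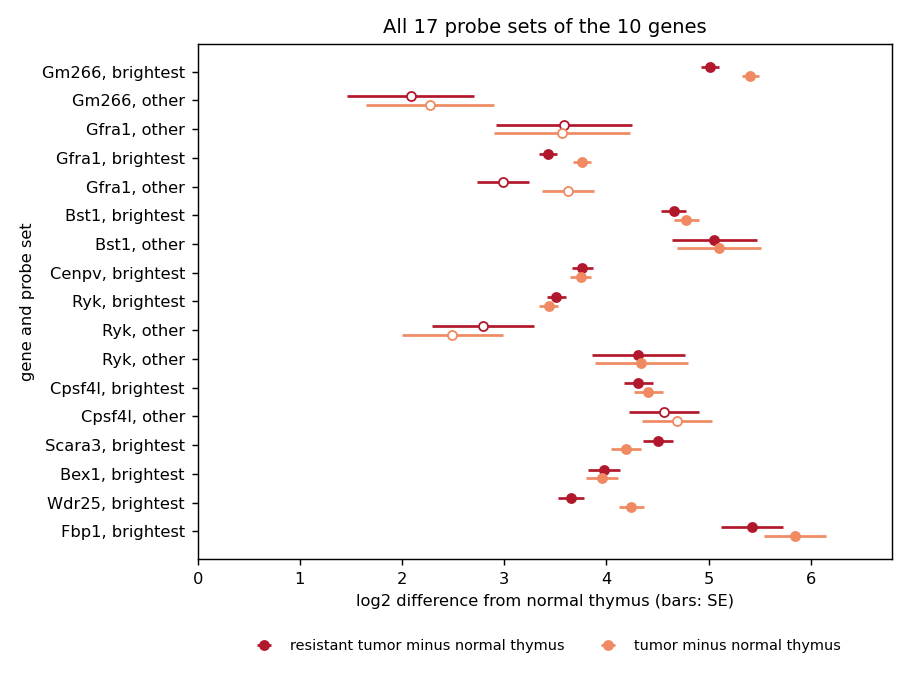
Log2 difference from normal thymus (horizontal axis) of all 17 probe sets of the 10 genes, resistant tumor in red above tumor in orange, with SE bars. Open points mark probe sets whose 3 normal thymus readings all lay under the array median; every point is above 0, and the dim probe sets of *Gm266* and *Ryk* are the smallest.

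All 17 probe sets passed the filter on low signal, which asks for 3 of the 9 arrays at the array median or above, and this was reached through the tumor arrays where normal thymus was below it. All 17 differences from normal thymus were above 0 in both comparisons. Probe sets of 1 gene measured different stretches of its transcript, so only their directions are compared.

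The question whether resistant tumors differ from tumors in these genes is not the contrast used to pick them. Picking genes high in both groups still limits in part how far they can differ. Picking them for even rises also favours a small spread between arrays. The fit uses that same spread here, so the intervals of these genes may be too narrow and their p-values too small. Of the 10 genes, 0 were called between the groups, beside 0.36% of all genes tested, which is 42 genes, 0.129% higher and 0.231% lower (limma, Benjamini-Hochberg). The median log2 difference, resistant tumor minus tumor, was -0.11 for the 10 and -0.02 for all genes, with 6 of the 10 below 0 and 4 above. For *Gm266*, *Gfra1* and *Wdr25* the groups did not overlap on the brightest probe set and resistant tumors were lower, beside 10.4% of all genes without overlap in either direction and 6.01% without overlap and lower. The same 3 genes had an unadjusted p under 0.05, as did 844 of all genes. On the dimmest probe sets of *Gfra1* (1421973_at) and *Gm266* (1438770_at) the tumor groups overlapped.

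*Wdr25* had the largest difference of the 10, at -0.59 (95% interval -0.90 to -0.28, adjusted p = 0.162 in limma). *Gm266* was next among the non-overlapping genes, at -0.39 (-0.62 to -0.17, adjusted p = 0.213), and *Gfra1* was at -0.34 (-0.56 to -0.11, adjusted p = 0.333). *Fbp1*, at -0.42 (-1.06 to 0.22, adjusted p = 0.825), had the widest interval, and without the first resistant tumor array its difference was -0.05. *Scara3* had the highest positive value, at 0.31 (-0.04 to 0.66, adjusted p = 0.74). For *Bex1*, *Cenpv* and *Ryk* the differences were 0.02, 0.01 and 0.07, with intervals of -0.31 to 0.35, -0.25 to 0.28 and -0.19 to 0.34. *Bst1* was at -0.12 (-0.43 to 0.19) and *Cpsf4l* at -0.10 (-0.43 to 0.23). A p that misses the threshold does not show that resistant tumors and tumors are alike.

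Within the arrays with spike-in signal, 1 resistant tumor against 2 tumor arrays, *Wdr25* was at -0.81 (adjusted p = 0.0245) and *Gm266* at -0.52 (adjusted p = 0.0364), both past the threshold in limma, where the lone resistant array is assumed to vary like the others. *Gfra1* was at -0.40 (adjusted p = 0.114) there. Within the arrays without spike-in signal, 2 resistant tumor against 1 tumor array, the same genes were at -0.31, -0.24 and -0.26 in the order *Wdr25*, *Gm266* and *Gfra1*, none past the threshold. *Cpsf4l* had opposite signs in the sets, -0.42 with spike-in signal and 0.21 without. Against normal thymus the 10 genes had log2 differences of 3.35 to 5.71 in resistant tumors and 3.46 to 5.81 in tumors within the arrays with spike-in signal, and 3.48 to 5.43 and 3.39 to 5.90 within those without it.

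**Figure D3:**
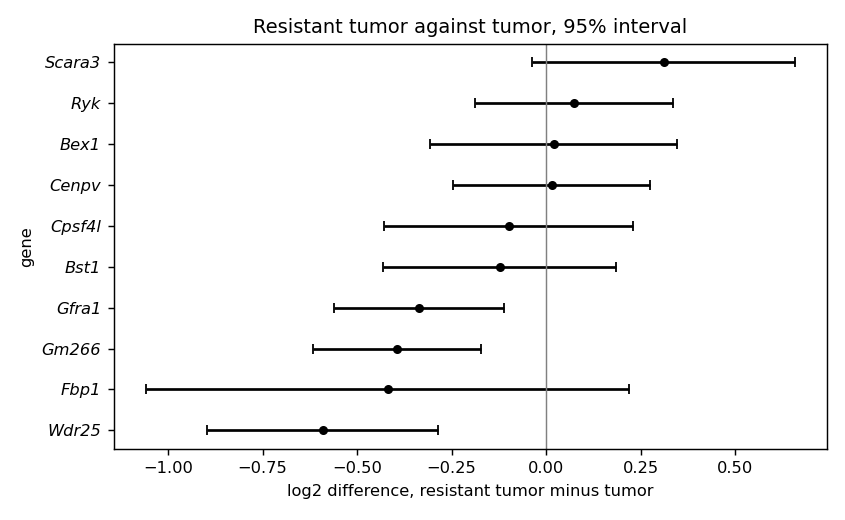
Log2 difference, resistant tumor minus tumor, of the 10 genes with the 95% interval from limma, in order from the most positive (top) to the most negative (bottom). The intervals of *Gfra1*, *Gm266* and *Wdr25* lie wholly below 0, and those of the other 7 genes include 0. Because the genes were picked for even rises, the intervals may be too narrow.

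The 10 genes lie on 8 chromosomes. *Gm266* and *Wdr25* are both on chromosome 12, with 21 protein-coding genes between them in the RefSeq gene order of GRCm38.p6, and *Cenpv* and *Cpsf4l* on chromosome 11, with 898 between them. Neighbours were mixed. Next to *Ryk*, *Amotl2*, an angiomotin family member, was called higher in resistant tumors (log2 difference 2.26) and tumors (2.57), while *Slco2a1*, a prostaglandin transporter on its other side, was called lower (-2.15 and -2.08). Beside *Cpsf4l*, *Cdc42ep4*, an effector of the GTPase Cdc42, was called higher, at 1.996 and 2.40, and *D11Wsu47e* at 0.69 and 0.73. *Fbxl5*, an iron-sensing ubiquitin ligase subunit next to *Bst1*, was called higher at 0.89 and 1.17. Near *Scara3*, *Clu*, the chaperone clusterin, was called lower at -0.87 and -1.57, and *Ccdc25* was not called (0.22 and 0.23). *Tnfaip2* beside *Gm266* passed on its brightest probe set in tumors (2.01, adjusted p = 0.0377) and not in resistant tumors (0.93, adjusted p = 0.303). Its other probe sets were higher on every resistant tumor array than on every normal thymus array. They read 87.1, 61.5 and 37.4 against 6.72, 4.97 and 6.05, and 63.4, 49.3 and 152 against 39.1, 21.7 and 16.4. *Eif5*, a translation initiation factor on the other side of *Gm266*, was called at 0.33 and 0.43. *Aopep*, an aminopeptidase next to *Fbp1*, was called lower at -0.52 and -0.38. *Pigl*, of GPI anchor synthesis and beside *Cenpv*, was called in resistant tumors (0.45) and not in tumors (0.34, adjusted p = 0.108). The other *Pigl* probe set was not higher in resistant tumors. It read 85.7, 73.9 and 64.3 there, 103, 70.5 and 73.6 in tumors, and 83.6, 92.6 and 90.9 in normal thymus. *Atrnl1* next to *Gfra1* was called in neither (0.03 and 0.58). *Cd38*, *Ubb*, *Begain* and the neighbours of *Bex1* were not tested.

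Other genes with the most similar pattern over the 9 arrays were ranked by Pearson correlation with the mean of the 10 genes' centred log2 signals. This is a description, since the arrays form 3 groups and the choice of the 10 sets the shared pattern. *Ptcra*, which encodes the alpha chain of the receptor on early thymocytes, was highest at 0.997, and *Shmt2*, a mitochondrial serine hydroxymethyltransferase, *Yap1*, a transcriptional coactivator of the Hippo pathway, *Bcat1*, a branched-chain aminotransferase, and *Trim44*, a tripartite motif protein, were each at 0.996. *Ptcra* read 2108, 2551 and 2126 in resistant tumors, 2655, 2715 and 2646 in tumors, and 281, 359 and 363 in normal thymus. The log2 differences from normal thymus of these 5 genes were 0.88 to 2.76 in resistant tumors and 0.89 to 3.01 in tumors, all called and all smaller than those of any of the 10.

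**Figure D4:**
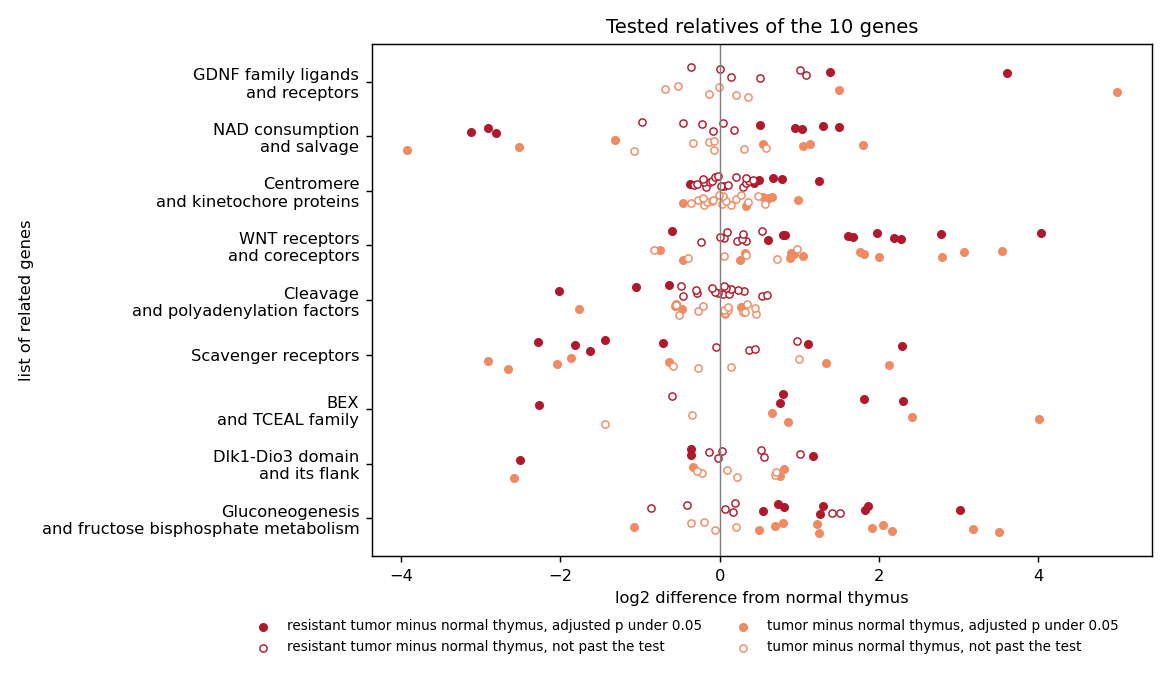
Log2 difference from normal thymus (horizontal axis) of the tested genes of 9 lists related to the 10 genes, resistant tumor in red above tumor in orange, filled where limma's adjusted p was under 0.05. Genes of the WNT list, which holds receptors, coreceptors, ligands and signalling proteins, and of the gluconeogenesis list lie mostly to the right of 0. The scavenger receptor and cleavage factor lists hold more called genes to the left than to the right.

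Over all 9 lists, 127 of 168 genes were tested. In resistant tumors 37 were called higher and 17 lower than normal thymus, and in tumors 43 higher and 18 lower, beside 23.1% and 20.2% of all genes higher and lower in resistant tumors and 23.3% and 19.1% in tumors. Between resistant tumors and tumors 0 of the 127 were called by limma, and 8 had an unadjusted p under 0.05. The lists' genes were counted without the 10 genes. With array medians set equal, 26 of the 127 were called in resistant tumors and 31 in tumors.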

How the data were processed

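The values are MAS5 signals, intensity on a linear scale, as the authors deposited them; the submitters' processing notes name MAS5, with the version and scaling target not given in the sources used here. Total RNA was labelled with biotin, per the labels' protocols. Signals were floored at 1 before log2. Each of 34945 probe sets with 1 gene symbol in the platform annotation was kept when at least 3 of 9 arrays reached the array's median (20917 kept), and the brightest per gene was used (11671 genes). Control rows of the first tumor array stood in another order (64 rows) and were sorted by name. limma 3.58.1 (R 4.3.3) was fitted to all 9 arrays with 1 mean per group and an intensity trend (6 residual degrees of freedom), two-sided, with Benjamini-Hochberg adjustment and a threshold of 0.05. It was tested on simulated data. Where all 3 readings of a group fell under their arrays' medians, an "at least" fold is given, with that median in its place. For *Aldoc* in resistant tumors and *Bex2* in both tumor groups a fitted log2 difference is printed, and its size rests on readings under the median. Figures were drawn with matplotlib 3.10.9 (Python 3.11.15).

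The 10 genes, the related lists, the marker lists and the tests were chosen with earlier results of these data known. Named genes are the 10, up to 3 called genes of largest change in tumors per list, 1 fixed family member for 7 of the genes, the nearest protein-coding neighbours, and the 5 genes of most similar pattern. Correlations of deviations between same-numbered arrays ran from -0.34 to 0.65, so the numbers were not taken as pairs. The negative values, -0.34 and -0.30, were those of resistant tumor replicate 2 with arrays of the other spike-in set. Alternatives were quantile normalization, equal array medians, an offset of 50, other filters, no trend, the mean over probe sets, blocks, spike-in sets and leaving out each array.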

Additional observations from a re-analysis of the deposited data

How the results depend on the processing

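The 10 genes stayed above normal thymus and past the threshold in both comparisons under all 20 alternatives, with log2 differences of 2.50 to 6.03, which their choice fixes in part and which is no sign of stability. Between resistant tumors and tumors 0 of the 10 were called in all alternatives except within the arrays with spike-in signal, where 2 were (*Wdr25* and *Gm266*); the cause was not tested. Over all genes, 42 were called in resistant tumors against tumors, 5049 in resistant tumors against normal thymus and 4943 in tumors against normal thymus. With array medians set equal these were 18, 2034 and 2287, and of the related genes 26 were called in resistant tumors and 31 in tumors against normal thymus. That scaling moved the median of all genes to -0.26 (main setting -0.02), 0.00 (0.06) and 0.24 (0.05) in the same order. The share of calls that were higher was 22.2% (4 higher, 14 lower) in place of 35.7% (15 and 27) between the tumor groups, and 43.2% (878 and 1156) in place of 53.4% (2696 and 2353) in resistant tumors against normal thymus. Other alternatives gave 22 calls between the tumor groups with no filter, 23 with the filter at the 75th percentile and 27 with the mean over probe sets. That filter left 35 related genes called in resistant tumors against normal thymus, of 84 tested in place of 127. Quantile normalization called 1 related gene between the tumor groups. The spike-in set as a block gave 143 genes and 1 related gene there. Within the arrays with spike-in signal 553 genes and 4 related genes were called between the tumor groups. Within those without it 1 gene was called there, 3069 in resistant tumors and 2117 in tumors against normal thymus, and 35 and 30 related genes, with fewer samples in each. The higher share between the tumor groups was 53.9% and 100% in those sets. With the replicate number as a block, 92 genes and 1 related gene were called between the tumor groups, 6085 in resistant tumors and 5967 in tumors against normal thymus, and 10, 10 and 0 of the 10 genes as before. Of 9 arrays, 6 correlated best with an array of their own number. All replicate 1 arrays lacked spike-in signal and all replicate 3 arrays had it. Of the replicate 2 arrays only the resistant tumor one lacked it. Likeness by number thus largely coincides with the spike-in set and is no sign of pairing. Leaving out 1 array gave 8 (without tumor replicate 2) to 70 (without resistant tumor replicate 3) genes between the tumor groups, with 10 without tumor replicate 3, 20 without normal thymus replicate 2 and 19 without normal thymus replicate 3. It gave 3818 to 5310 genes in resistant tumors and 3878 to 5374 in tumors against normal thymus. Related genes came to 43 to 55, 44 to 65 and, between the tumor groups, 0 to 1, and the 10 genes to 10, 10 and 0 calls in every case. Leaving out some single array also lost calls of genes named above. Against normal thymus these were *Nmnat1*, *Cenpp*, *Papolg*, *Wdr33*, *Wars*, *Evl*, *G6pc3*, *Scara5*, *Tnfaip2* and *Aopep* in tumors. In resistant tumors they were *Cd163*, *Bex4*, *Bex2*, *Scara5*, *Eif5*, *Pigl* and *Clu*. *Gfra2* turned from small positive values to -1.20 in resistant tumors and -1.09 in tumors with the mean over probe sets; the cause was not tested. With 3 arrays a group, and probe sets near the array median in normal thymus, small differences between the tumor groups and the exact size of the largest folds are poorly resolved.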
